A study of Mus musculus with 20 samples.

Results

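The 10 genes described here belong to bone morphogenetic protein (BMP) signalling and were followed across 3 sorted states of mouse embryonic stem cells and the unsorted culture. They are the ligands Bmp2, Bmp4 and Bmp7, the receptors Bmpr1a and Bmpr2, the target genes Id1, Id2, Id3 and Id4, and the intracellular inhibitor Smad6. The 10 were taken by gene symbol from an RNA-seq table of 29692 genes, and each symbol matched 1 row. All cells were grown in fetal bovine serum with leukemia inhibitory factor (LIF) and separated by flow cytometry. The pluripotency factors defined the sort: state 1 cells were Nanog high and Sox2 high, state 2 cells Nanog low and Sox2 high, and state 3 cells low in both, and the total population was not divided by state. The strain, sex and alleles of the cells are not given in the sources used here. Each group had 3 RNA-seq libraries, which the authors merged into 1 normalized value per gene, so no value below carries an error between libraries.

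BMPs are secreted dimers of the TGF-beta superfamily that bind a complex of type I and type II serine/threonine kinase receptors. The activated type I receptor phosphorylates Smad1, Smad5 and Smad9, which join Smad4, enter the nucleus and switch on targets such as the Id genes. Id proteins carry a helix-loop-helix domain without a DNA-binding region and hold back the E proteins that drive lineage genes. In mouse embryonic stem cells, BMP4 or serum acting through Id proteins is known to sustain self-renewal together with LIF, and BMPs are also known to promote mesoderm, trophoblast and extraembryonic fates.

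The values are the authors' normalized signal, which is not divided by gene length, so levels are compared between groups and not between genes. A difference between 2 groups was called where the probabilities of unequal groups in the authors' deposited table added up to 0.95 or more. Such a probability comes from the authors' model over all 12 libraries and is not a p-value. No label ties the libraries to separate cultures, so the spread behind it may be technical. Column totals were 16.9 to 17.7 M, and about 48.0 to 60.4 M reads or read pairs stood behind each group. The sort was visible in its own genes: Nanog had values of 4145, 743 and 440.0 in states 1, 2 and 3, and Sox2 had 4155, 3167 and 1306. Pou5f1, which encodes Oct4, had 13810.4, 10275 and 9826 in the same states and was not called between any of them. All 9 stem cell identity markers examined were above 0 in every group.

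Between state 1 and state 3, 5 of the 10 genes were called higher (Bmp2, Bmpr1a, Bmpr2, Id2 and Id4), where 11.4% of all genes were, and Bmp4 was called lower, where 9.01% were. Every one of the 10 reached a value of at least 10 in some group, and among the 16052 genes that did so the shares were 20.7% and 16.6%. Bmp7, Id1, Id3 and Smad6 were not called in any comparison. Over the 10 genes the median log2 ratio between state 3 and state 1 was 0.59, against -0.0047 over the 16052 genes.

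The 2 steps between the states differed in which genes passed. From state 1 to state 2, Bmpr2 and Id2 were called higher, with a background of 7.11% (13% among genes reaching 10), and Bmp4 lower, with a background of 6.33% (11.6%). These member counts lie close to the background. From state 2 to state 3, Bmp2, Bmpr2 and Id2 were called higher, with a background of 5.41% (9.89%), and none lower, with a background of 3.19% (5.87%). All 10 values were higher in state 3 than in state 2, by log2 ratios of 0.024 for Id1 to 2.62 for Bmp2, though Id1 turned to -0.0080 when values were divided by column totals. Of these 10 genes, 7 were not called at that step, and the share of all genes with a higher value was not counted. The 3 comparisons share groups and are not independent of each other.

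**Figure D1:**
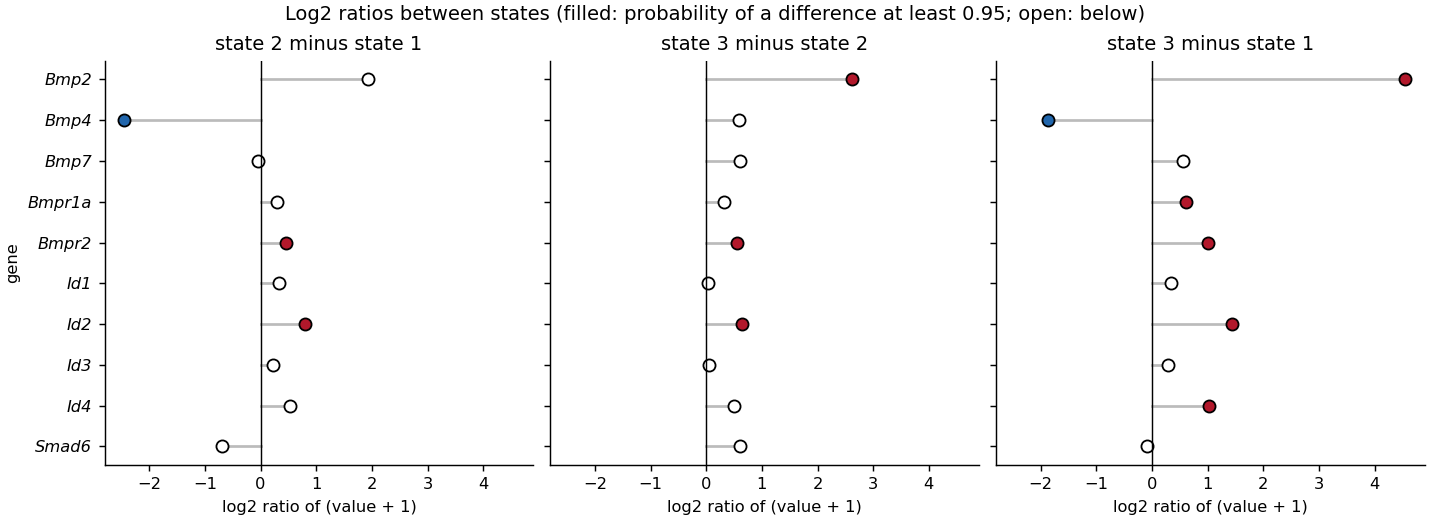
Log2 ratios of (value + 1) for the 10 genes (rows) in the 3 comparisons between states (panels), with filled points where the probability of a difference was at least 0.95 (red higher, blue lower) and open points below that. Bmp4 is the only filled point to the left of 0, at -2.45 in the first panel and -1.87 in the last, and Bmpr2 and Id2 are filled in all 3 panels.

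Promoter windows were available for 7 of the 10 genes from RefSeq (GRCm38.p6), each from 250 bases before to 50 after an annotated start; Bmp2, Bmp7 and Id1 had no entry. The letters GGCGCC, a GC-rich element that Smad1 and Smad5 are known to bind, were looked for on both strands, where the word reads the same. It stood in the windows of Id2, Id4, Bmpr2 and Bmpr1a, and not in those of Id3, Bmp4 and Smad6. The windows of Bmpr1a and Smad6 each belong to a start that is not at the edge of the annotated gene. Presence or absence of the word in these windows covers that start only. Sequence more than 250 bases before a start was not searched for any gene. All 4 genes with the word were called higher in state 3 than in state 1 and none of the other 3 was. Of all genes, 11.4% were called higher there (20.7% of genes reaching 10). This pattern was noticed after the calls were known and carries no test. How often genes with the word were called higher over all windows was not counted. Bmp2, also called higher, had no window. The related word GGAGCC, searched on both strands in the same way, stood in 5 of the 7 windows, those of Bmp4, Id3, Smad6, Id2 and Id4, so it was in all 3 genes without GGCGCC. It occurred in 30.8% of all windows and in 53.0% of the GC-rich ones described next, and it is not capitalised in the sequences printed here. The word GGCGCC is tied to base composition: it occurred in 11.9% of 32851 mouse promoter windows but in 30.9% of the 9690 windows with at least 60% G and C. The 7 windows held 59.3% (Bmpr2) to 79.3% (Bmpr1a) G and C.

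The 250 bases before the start of 5 of these genes are printed 5′ to 3′ on the strand of the gene. Id2, Id4 and Bmpr2 hold GGCGCC, while Id3, which has Smad4 boxes, and Bmp4 do not. Capitals mark GGCGCC and the Smad4 box CAGAC, the latter on either strand (GTCTG on the other), a word found in 49.6% of all windows. The 2 words do not overlap.
Id2: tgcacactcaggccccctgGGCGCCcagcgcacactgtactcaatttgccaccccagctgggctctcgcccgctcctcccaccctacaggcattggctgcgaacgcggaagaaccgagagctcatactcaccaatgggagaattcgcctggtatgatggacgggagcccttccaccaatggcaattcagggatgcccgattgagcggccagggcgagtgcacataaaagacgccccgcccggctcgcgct
Id4: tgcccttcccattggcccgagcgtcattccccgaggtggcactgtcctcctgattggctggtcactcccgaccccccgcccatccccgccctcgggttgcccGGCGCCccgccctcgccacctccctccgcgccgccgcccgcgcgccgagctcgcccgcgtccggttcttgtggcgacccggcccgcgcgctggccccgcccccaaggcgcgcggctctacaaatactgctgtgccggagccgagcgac
Bmpr2: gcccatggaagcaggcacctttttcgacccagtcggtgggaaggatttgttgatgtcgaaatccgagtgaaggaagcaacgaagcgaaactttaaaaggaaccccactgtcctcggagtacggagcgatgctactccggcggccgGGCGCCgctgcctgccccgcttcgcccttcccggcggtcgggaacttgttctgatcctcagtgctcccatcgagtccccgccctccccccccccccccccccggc
Id3: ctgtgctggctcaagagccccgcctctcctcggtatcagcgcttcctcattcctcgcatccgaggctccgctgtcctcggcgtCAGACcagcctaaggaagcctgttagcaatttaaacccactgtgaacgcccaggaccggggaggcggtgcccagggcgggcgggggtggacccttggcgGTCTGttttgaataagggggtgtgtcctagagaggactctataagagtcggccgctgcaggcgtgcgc
Bmp4: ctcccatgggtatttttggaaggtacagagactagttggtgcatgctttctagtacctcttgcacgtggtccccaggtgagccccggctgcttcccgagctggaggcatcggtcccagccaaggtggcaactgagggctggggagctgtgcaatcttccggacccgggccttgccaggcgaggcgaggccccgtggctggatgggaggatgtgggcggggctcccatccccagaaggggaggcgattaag
In GRCm38 these lie at chr12:25096093-25096342 (minus strand), chr13:48260866-48261115 (plus), chr1:59764029-59764278 (plus), chr4:136143572-136143821 (plus) and chr14:46390670-46390919 (minus). Counted from the start, with -1 the last base before it, the GGCGCC word began at -231 in Id2, -148 in Id4 and -105 in Bmpr2. In the Bmpr1a window, which belongs to a start inside the annotated gene, it began at -198. The CCAAT box, a common promoter element, occurred 3 times in Id2 and 2 times in Id4 and once each in Bmpr1a and Smad6 (37.4% of all windows hold CCAAT on either strand). The letters TATAA stood only in Id3 among the 7, at -29 (24.9% of all windows). The GC box GGGCGG was in all 7 windows (35.7% of all windows, 80.6% of the GC-rich ones). A match is a run of letters and not a measured binding site.

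**Figure D2:**
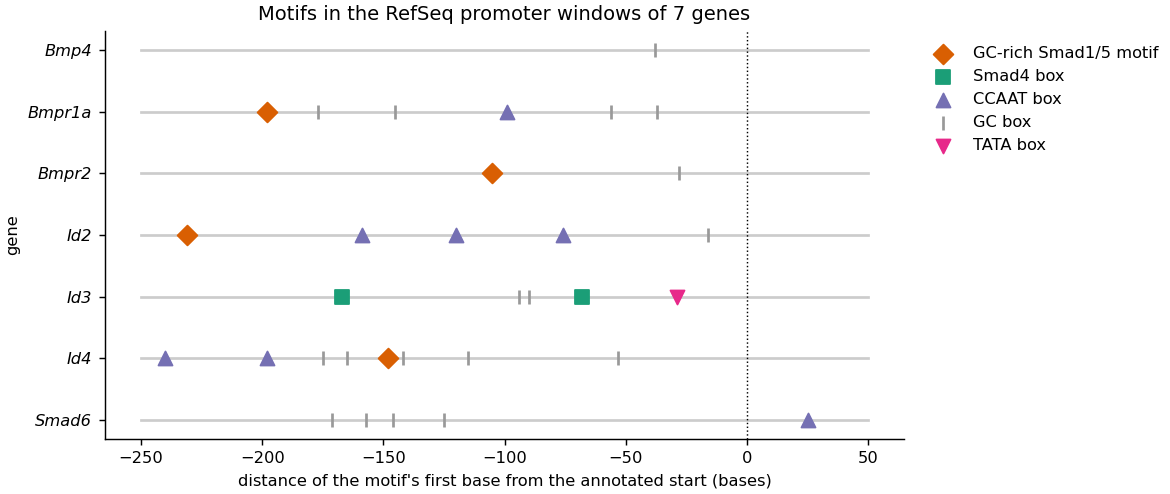
Position of each motif's first base relative to the annotated start (horizontal axis, bases) in the RefSeq promoter windows of 7 genes (rows), with a symbol per motif. The GGCGCC word, labelled as the GC-rich Smad1/5 motif, is in Bmpr1a, Bmpr2, Id2 and Id4, and the Smad4 box is in Id3 alone, at -167 and -68.

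Among the ligands, Bmp4 fell and Bmp2 rose from state 1 to state 3. Bmp4 (ENSMUSG00000021835.14, chromosome 14, 46383525 to 46390669 in GRCm38), the BMP best known from stem cell culture and the one that induces mesoderm and germ cells in the embryo, had a value of 569 in state 1, 103 in state 2, 155 in state 3 and 414 in the total population. State 1 and the unsorted cells were high and both Nanog-low states were low. Relative to state 1 its log2 ratio was -2.45 in state 2 and -1.87 in state 3, each with a probability of 1. In the printed Bmp4 promoter window neither marked word occurs.

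Between state 2 and state 3 Bmp4 had a log2 ratio of 0.58 and a probability of 0.479, so the pair was not called. The authors' deposited table put 0.51 on a pattern with states 2 and 3 equal and set apart from state 1 and the total population, and 0.419 on one in which states 2 and 3 also differ. State 2 held the lowest of the 4 values. Of all genes called between state 3 and state 1, 16.4% had a state 2 value outside the range of the other 2 states. The annotated genes Gm15217 and Gm15222 overlap Bmp4, and settings for strand in counting are not given in the sources used here; neither exceeded 0.66 in any group.

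Bmp2 (ENSMUSG00000027358.6, chromosome 2, 133552159 to 133562896), a close relative of Bmp4 that binds the same receptors, had a value of 0.64 in state 1, 5.26 in state 2, 37.4 in state 3 and 3.04 in the total population. State 3 stood above all other groups. The state 1 value corresponds to about 2 reads over the group and the state 3 value to about 104. State 3 exceeded state 2 by 2.62 on the log2 scale (probability 1) and state 1 by 4.55 (probability 1). These log2 ratios depend on the 1 added to each value: with 10 added they were 1.63 and 2.15, and with 0.1 added 2.81 and 5.66. The ratio of state 3 to state 1 was 58.4, with a 95% exact counting interval of 15.8 to 489. The step from state 1 to state 2 was not called (probability 0.777), and its ratio of 8.22 had a counting interval of 2.01 to 73.6. These intervals cover counting error only, since reads after PCR are not independent molecules.

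Bmp7 (ENSMUSG00000008999.7, chromosome 2, 172868012 to 172940321), a ligand of another BMP subgroup with known roles in kidney and eye, had a value of 58.9 in state 1, 57.0 in state 2, 87.4 in state 3 and 51.0 in the total population. State 3 was the highest, but the authors' deposited table put 0.759 on equality of all 4 groups. The ratio of state 3 to state 1 was 1.48, with a counting interval of 1.22 to 1.81 and a probability of a difference of 0.238. The annotated gene Gm40010 overlaps Bmp7 and has no row of its own in the table.

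**Figure D3:**
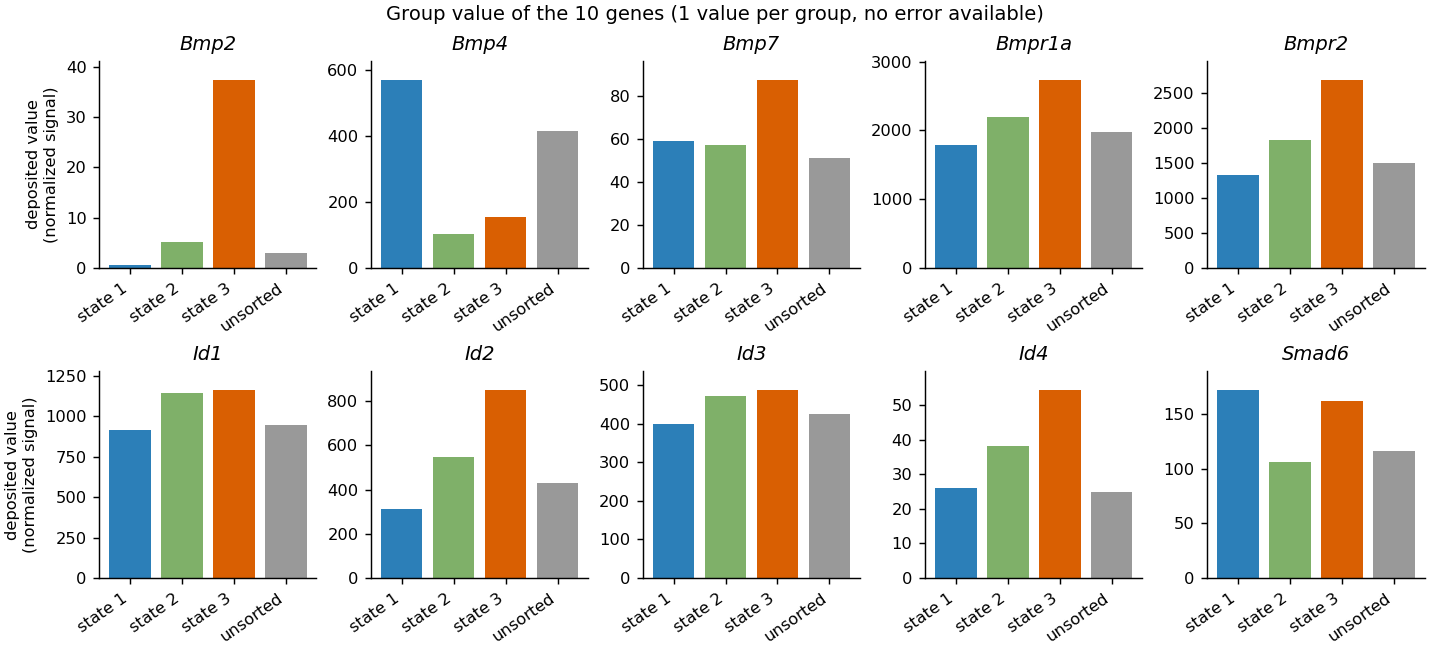
Deposited value of each of the 10 genes (panels, each with its own vertical axis from 0) in states 1, 2 and 3 and the unsorted total population, 1 value per group with no error. Bmp4 is tallest in state 1 at 569, and Bmp2, Bmp7, both receptors and the 4 Id genes are tallest in state 3.

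Both receptors were higher in state 3 than in state 1. Bmpr2 (ENSMUSG00000067336.6, chromosome 1, 59764279 to 59878081), the type II receptor that is dedicated to BMPs and related ligands, had a value of 1333 in state 1, 1836 in state 2, 2689 in state 3 and 1495 in the total population. The order from lowest to highest was state 1, total population, state 2 and state 3. Each step between states was called, by 0.46 from state 1 to state 2 and 0.55 from state 2 to state 3 on the log2 scale (probability 1 in both). State 3 was 2.02 times state 1, with a counting interval of 1.94 to 2.10. State 2 also exceeded the total population (log2 0.30, probability 0.997), and state 1 was not called against it (probability 0.0735). The authors' deposited table gave 0.926 to the pattern with states 2 and 3 each apart and state 1 equal to the total population, the highest probability of any pattern for any of the 10 genes.

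Bmpr1a (ENSMUSG00000021796.14, chromosome 14, 34411061 to 34503336), the type I receptor for BMP2 and BMP4 that mouse embryos need for gastrulation, had a value of 1787 in state 1, 2198 in state 2, 2733 in state 3 and 1977 in the total population. The order of the groups was that of Bmpr2. Only the difference between the ends was called among the states: state 3 exceeded state 1 by 0.61 on the log2 scale (probability 1). The single steps had log2 ratios of 0.30 and 0.31 with probabilities of 0.437 and 0.732.

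The Id genes split into a pair that rose and a pair that was not called. Id2 (ENSMUSG00000020644.9, chromosome 12, 25093799 to 25096092), an Id protein known from trophoblast, neural and lymphoid lineages, had a value of 312 in state 1, 546 in state 2, 851 in state 3 and 432 in the total population. The total population lay between states 1 and 2, and state 3 was highest. The step from state 1 to state 2 was 0.80 on the log2 scale (probability 0.999) and the step from state 2 to state 3 was 0.64 (probability 0.993). The first of these calls rests on the inferred order of the patterns: with state 1 and the total population exchanged its probability was 0.713. State 3 was 2.72 times state 1 (counting interval 2.53 to 2.94). Against the total population, state 1 had a probability of 0.715 and state 2 of 0.713, so those neighbours in the order were not told apart.

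Id4 (ENSMUSG00000021379.2, chromosome 13, 48261116 to 48266028), best known from neural precursors and spermatogonial stem cells, had a value of 26.1 in state 1, 38.2 in state 2, 54.3 in state 3 and 24.97 in the total population. State 3 exceeded state 1 by 1.03 on the log2 scale with a probability of 0.979, which passes at 0.95 but not at 0.99. The single steps were not called (probabilities 0.81 and 0.31). About 82 reads stood behind the state 1 value, and the ratio of 2.08 between state 3 and state 1 had a counting interval of 1.57 to 2.74. The annotated gene A330033J07Rik overlaps Id4 and has no row of its own in the table.

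Id1 (ENSMUSG00000042745.9, chromosome 2, 152736251 to 152737410), the most used readout of BMP and Smad1/5 activity, had a value of 912 in state 1, 1143 in state 2, 1162 in state 3 and 948 in the total population. States 2 and 3 were close to each other and above the other 2 groups. The ratio of state 3 to state 1 was 1.27, outside counting error (interval 1.21 to 1.34), but the probability of a difference was 0.534. The authors' deposited table put 0.511 on states 2 and 3 equal and apart from state 1 and the total population, and 0.465 on no difference at all, so the model did not decide between them.

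Id3 (ENSMUSG00000007872.3, chromosome 4, 136143822 to 136145392), which is often induced together with Id1, had a value of 400.1 in state 1, 470.2 in state 2, 487 in state 3 and 426 in the total population. The order of the groups was that of Id1. State 3 was 1.22 times state 1 (counting interval 1.13 to 1.32, probability 0.232), and the authors' deposited table put 0.766 on equality of all groups. A probability under 0.95 does not show that Id1 and Id3 were equal across the states. Whether Id2 and Id4 differed from Id1 and Id3 in their response was not tested.

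Smad6 (ENSMUSG00000036867.7, chromosome 9, 63953076 to 64022085), an inhibitory Smad that BMP signalling induces and that blocks type I receptors, had a value of 172 in state 1, 107 in state 2, 162 in state 3 and 116 in the total population. States 1 and 3 were high, and state 2 and the unsorted cells were low. The ratio of state 2 to state 1 was 0.619 (counting interval 0.541 to 0.706), with a probability of 0.529, and that of state 3 to state 2 was 1.52 with a probability of 0.504. The largest share in the authors' deposited table, 0.433, was for equal groups, and the next, 0.278, for states 1 and 3 equal and apart from state 2 and the total population.

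**Figure D4:**
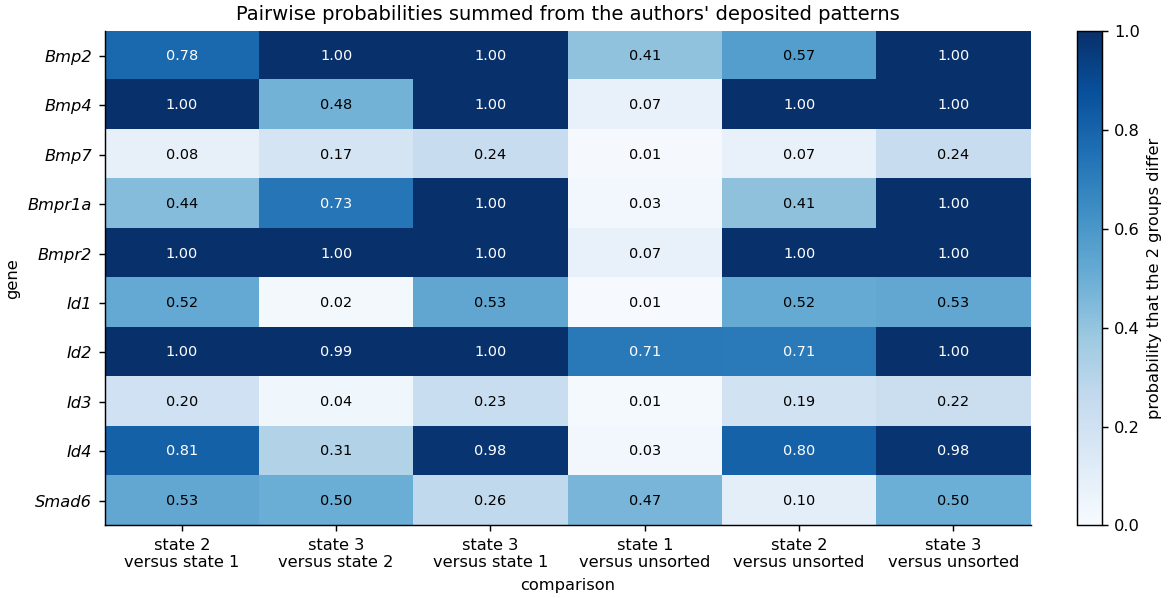
Probability that 2 groups differ, summed from the authors' deposited patterns, for the 10 genes (rows) in 6 comparisons (columns), with darker blue for higher probability; unsorted is the total population. The column for state 1 against the unsorted cells holds no value of 0.95 or more, and its highest is 0.715 for Id2.

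The total population was used as the unsorted reference; it contains cells of the sorted states. None of the 10 genes was called between state 1 and the total population, where 0.707% of all genes were called higher and 1.27% lower in state 1 (1.31% and 2.35% of genes reaching 10). State 2 exceeded the total population for Bmpr2 (background 5.82%, or 10.6% of genes reaching 10) and was below it for Bmp4 (log2 -1.99, background 5.3% or 9.75%). In state 3, Bmp2, Bmpr1a, Bmpr2, Id2 and Id4 were higher than in the total population (background 10.8% or 19.6%) and Bmp4 was lower (log2 -1.41, background 8.32% or 15.3%). These 6 were also called against state 1. For Id4 and Bmp7 the total population was below all 3 sorted states, by a small margin and without a call against state 1 (probabilities 0.0259 and 0.00912).

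The state 2 value was intermediate for the rising genes, but only Bmpr2 and Id2 were called at both steps. For Id4 the authors' deposited table put 0.659 on states 2 and 3 equal and apart from the other groups. For Bmpr1a it put 0.563 on state 2 equal to state 1 and the total population. On the log2 scale state 2 had covered 0.425 of the distance from state 1 to state 3 for Bmp2, 0.456 for Bmpr2, 0.486 for Bmpr1a, 0.517 for Id4 and 0.558 for Id2. Over the 6070 genes called between state 3 and state 1 the median was 0.603 with quartiles of 0.415 and 0.791. With 1 added to each value, all 5 shares lie between those quartiles. The Bmp2 share rests on about 2 reads in state 1 and depends on the number added. With 10 added, the Bmp2 log2 ratios to state 1 were 0.52 in state 2 and 2.15 in state 3. For Bmp4 the share was 1.31, since state 2 lay beyond state 3.

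Other genes of the pathway were read from lists chosen with earlier results of these data known; 59 of 62 listed genes had a row. Of the 59, 46 reached a value of 10 in some group, so shares among genes reaching 10 are given in brackets. Between state 3 and state 1, 29 of the 59 were called higher and 4 lower, beside backgrounds of 11.4% and 9.01% (20.7% and 16.6%). Their median log2 ratio was 1.13 against 0 over all genes. From state 1 to state 2, 12 were higher and 3 lower, beside 7.11% and 6.33% of all genes (13% and 11.6%). From state 2 to state 3, 21 were higher and 2 lower, beside 5.41% and 3.19% (9.89% and 5.87%).

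Of 10 other ligands with a row, 4 were called higher in state 3 than in state 1 and none lower. The shares of all genes were 11.4% and 9.01% (20.7% and 16.6% of genes reaching 10). Bmp8b rose from 36.4 in state 1 to 88.8 in state 2 and 240 in state 3, and Bmp6 from 11.0 to 23.7 and 48.3. Bmp8a, at 17.2, 14.7 and 52.0 in the same order, was called from state 2 to state 3. Bmp8a and Bmp8b are close copies, and rules for dividing reads between them are not given in the sources used here. Gdf7 was called between states 1 and 3 at low values, 2.90 and 9.52.

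Of 8 other receptors and co-receptors, 5 were called higher and 1 lower in state 3 than in state 1. Background shares were 11.4% and 9.01% (20.7% and 16.6% of genes reaching 10). Acvr1, a type I receptor that BMP7-like ligands use, went from 92.1 to 147 and 277, a log2 ratio of 1.58 between the ends. The co-receptors Rgma and Rgmb had log2 ratios of 1.74 and 0.84, and the type II receptor Acvr2a 0.75. Endoglin (Eng), a TGF-beta co-receptor, was the one that fell, from 384 to 303 (log2 -0.34). Bmpr1b, a type I receptor close to Bmpr1a, had values of 10.9 and 39.0 in states 1 and 3 with a probability of 0.17.

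Among 10 Smads and their regulators, 7 were called higher and none lower between the ends. Beside them stand backgrounds of 11.4% and 9.01% (20.7% and 16.6% of genes reaching 10). Skil, a Smad co-repressor also called SnoN, rose from 2272 in state 1 to 6790 in state 2 and had 5613 in state 3. Smad7, the inhibitory Smad of the whole superfamily, rose by 0.61 on the log2 scale between states 1 and 3, and Bambi, a decoy receptor, by 0.94. The ubiquitin ligase gene Smurf2 rose by 0.55. Of the BMP-activated Smads, Smad5 rose from 780 to 982 (log2 0.33), Smad1 had 491 and 529 and was not called, and Smad9 had 6.13 and 22.9 and was not called.

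Secreted inhibitors and binding proteins were called higher in 1 of 14 cases from state 1 to state 2, in 6 of 14 from state 2 to state 3 and in 6 of 14 between the ends, with none lower. The shares of all genes called higher in these comparisons were 7.11%, 5.41% and 11.4%. Noggin (Nog), which binds BMP2 and BMP4 and keeps them from their receptors, had a value of 0.32 in state 1, 12.7 in state 2, 74.1 in state 3 and 4.82 in the total population. It was called at both steps. About 1 read stood behind the state 1 value, and the ratio of state 3 to state 1 had a counting interval of 41.1 to 9198. Follistatin (Fst), an activin and BMP binder, rose from 23.0 to 91.8 between states 1 and 3, Nbl1 from 16.1 to 66.5 and the follistatin-like gene Fstl1 from 994 to 2910. Chordin (Chrd) had values of 79.2 and 64.5 and was not called.

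Of 6 ligand proteases 3 were called higher in state 3 than in state 1 and 1 lower. Background shares were 11.4% and 9.01% (20.7% and 16.6% of genes reaching 10), and the single lower call lies close to them. Bmp1, a metalloprotease that cuts chordin and collagen precursors and is no BMP ligand, rose from 78.3 to 291 and 937 across states 1, 2 and 3. Furin, a convertase that matures BMP precursors, rose from 378 to 815 and 1509, and Tll1, a relative of Bmp1, by 1.19 on the log2 scale between the ends. Pcsk6, another convertase, fell from 974 to 486 and 448.

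Of 11 other genes known as BMP targets, 4 were called higher and 2 lower in state 3 than in state 1. Background shares were 11.4% and 9.01% (20.7% and 16.6% of genes reaching 10). The number called lower lies close to background. Hand1 went from 0.65 to 11.7 and 56.2, Gata3 from 5.82 to 21.2 and 84.0, and Msx1 from 2.24 to 12.2 and 34.7; these are factors of trophoblast, mesoderm and other differentiating tissues. The falls were Tbx3, at 2550, 372 and 219, and Tfap2c, at 951, 562 and 270. Dusp9, a phosphatase gene that BMP4 is known to induce in embryonic stem cells, had 2321, 2150 and 2115 and was not called. Among 6 partners of Id proteins and related factors, Tcf12, an E protein, rose from 766 to 1189 between states 1 and 3, and Neurod1, a neurogenic factor, had its highest value in state 2 (46.0, 166 and 63.5).

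**Figure D5:**
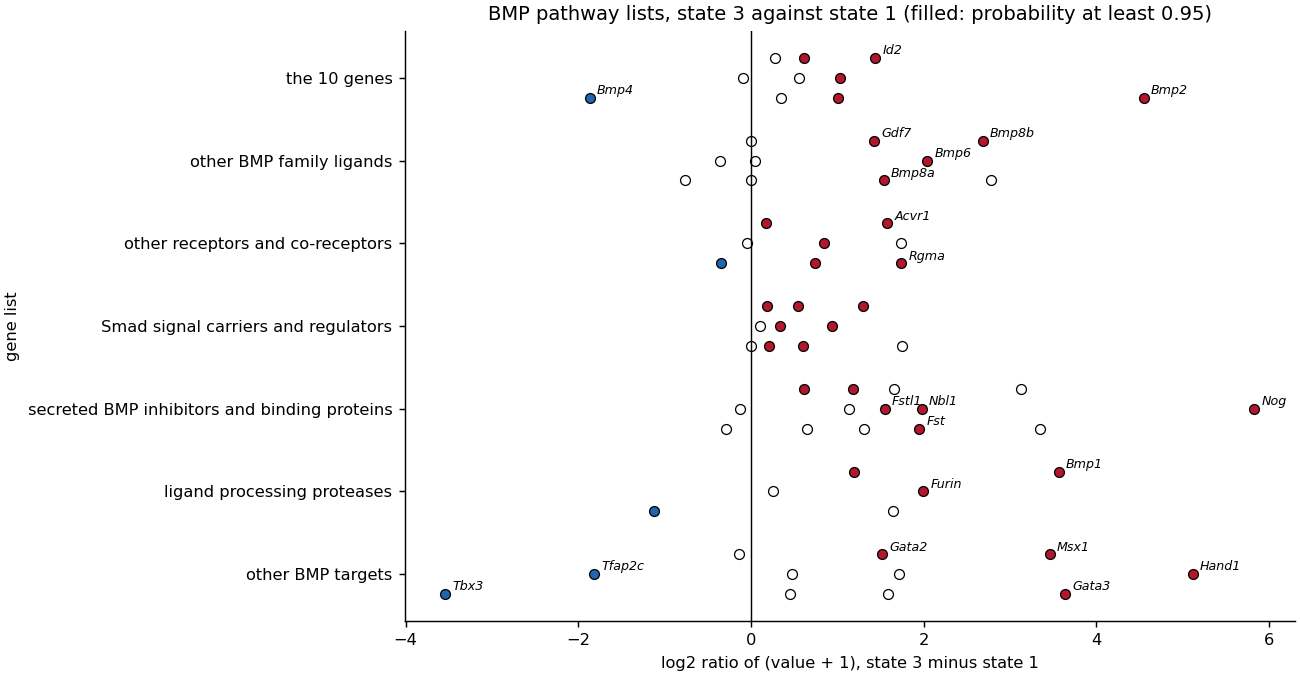
Log2 ratio of (value + 1) between state 3 and state 1 (horizontal axis) for the 10 genes and for the other genes of the pathway by list (rows), 1 point per gene, filled where the probability was at least 0.95 (red higher, blue lower). Filled points lie mostly to the right, with Nog at 5.83 farthest, and the filled points on the left are Bmp4, Eng, Pcsk6, Tfap2c and Tbx3.

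Markers of other cell types moved along the same axis. The summed value of 8 trophectoderm markers was 369 in state 1, 2215 in state 2, 9698 in state 3 and 1387 in the total population, and 7 of the 8 were called higher in state 3 than in state 1. Most of the state 3 sum came from Krt8 and Krt18, at 5389 and 3437. Elf5 was at 0 in state 2 and at 0.36 in state 3. The 9 primitive endoderm markers summed to 1404, 1293, 2540 and 1348 in the same order, with 6 called higher. Most of each sum was Lama1, a laminin chain gene at 1328.5, 909, 1610 and 1175, which was not called between states 3 and 1 (probability 0.775). Without Lama1, left out after its values were seen, the other 8 summed to 75.2, 384, 931 and 173. The 7 mesendoderm markers summed to 39.3, 83.8, 404.3 and 60.5, with 4 called higher, and Wnt3 alone was at 252 in state 3. Hand1 and Gata3 stand in both the target list and the trophectoderm list. The 8 fibroblast markers summed to 74.3, 201, 1192 and 192, with 4 called higher. Dcn had 0, 2.09 and 12.4 in states 1, 2 and 3 and was not called. Lum was at 0 in state 2 and 1.46 in state 3. Col1a1 alone was at 827 in state 3. Stem cell identity markers summed to 62161, 42559, 36401 and 54652, with 5 of 9 called lower. Lin28a went the other way, at 6300, 8599 and 8968 in states 1, 2 and 3, and was not called. Of all genes, 11.4% were called higher and 9.01% lower in state 3 than in state 1 (20.7% and 16.6% of genes reaching 10). The part of these cells in the results for the 10 genes was not tested, and in bulk RNA fewer cells of a type and less RNA per cell cannot be told apart.

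The genes with the most similar course were found among 12235 genes reaching a value of 50, by the Euclidean distance between 4 mean-centred log2 group values. For Bmpr2 these were Abhd5 and Cstb (distances 0.016 and 0.021), for Bmpr1a Mtpn and Mib1 (0.013 and 0.024), for Id2 Clip1 and Cachd1 (0.034 and 0.062) and for Id4 P2rx4 and Ahnak2 (0.036 and 0.050). For Bmp2 they were Clic5 and Ube2ql1 (0.21 and 0.25). Bmp4 had no gene within 0.25; Sox21 and Kdelr3 were nearest, at 0.33 and 0.37. By contrast 1216 genes lay within 0.25 of Bmpr1a, 422 of Bmpr2, 187 of Id4 and 172 of Id2. With 4 group values, such closeness is common, above all for a gene that changes little. The 2 genes named for each of these are therefore among many.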

How the data were processed

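RNA-seq covered 12 libraries in 4 groups. Per the labels' protocols, sorted cells were extracted with Trizol, rRNA was depleted and libraries were strand-marked with dUTP. Tools and builds in the submitters' processing notes, without role or order, are STAR 2.4.1d, RSEM 1.2.30, mm10 and GRCm38; scaling and merging of libraries are not given in the sources used here. Both deposited tables hold the authors' normalized signal, 1 value per feature and group, and a score for 15 patterns that set groups equal or apart. Per the file headers the score is a posterior probability; the file names point to EBSeq.

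The pattern order was read as EBSeq lists it for state 3, state 2, state 1 and total population. It was checked against 24 column orders: of 1453 genes with a mean of at least 5 and a score of 0.95 or more for 1 pattern, 94.4% fitted it, and 90.8% fitted the order with state 1 and the total population exchanged. Pair probabilities are sums over the patterns that set 2 groups apart, called at 0.95. Log2 ratios use the value plus 1. Reads were estimated from the most frequent low value in each column (0.28 to 0.36); a value of 0 allows up to 3 reads (0.84 to 1.08). Intervals are 95% Clopper-Pearson intervals turned into ratios. The deposited model gave a probability of any difference under 0.001 to 12.0% of the 3462 genes that reach 10 and have a log2 ratio of at least 1 between states 3 and 1, Smad9 among them, so a missing call is no sign of equal values.

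Members and lists were chosen with earlier results of these data known. Named genes are the members, up to 4 called genes per list with the largest change between states 3 and 1 (with none called, the 2 most abundant), the sort genes and the 2 nearest genes of each called member; Eng, Bmpr1b, Smad1, Smad5, Smad9, Chrd, Dusp9 and Tfap2c were named after their values were seen. Promoter words were searched in RefSeq windows of GRCm38.p6, and RefSeq gene coordinates of that build were matched by symbol. Count tests, planned in case of values per library, could not be run. Pair sums were tested on data simulated with the same pattern order and with large changes. That test cannot show whether the order is right or how small changes fare. Python 3.11.15, pandas 2.3.3, NumPy 2.4.6, SciPy 1.17.1 and matplotlib 3.10.9 were used.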

Additional observations from a re-analysis of the deposited data

Results flagged for a closer look

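Of the 10 genes 9 are also listed in the small RNA table (2 libraries per group), where fragments of their RNA were counted beside microRNAs, and 5 exceeded the level that 3 reads give (0.93 to 2.22) in all 4 groups, which is a signal outside the main measurement. Bmpr1a had 18.5, 23.4 and 39.4 in states 1, 2 and 3 and 20.9 in the total population, and Bmpr2 had 21.1, 14.8, 33.0 and 16.4. Id2 had 3.46, 7.69, 17.4 and 4.90, Id1 had 8.97, 11.7, 10.3 and 7.80, and Id3 had 8.64, 6.82, 3.95 and 7.65. The highest probability of any difference among these 5 was 0.098, for Id1. The state 3 value was the highest of the 4 for Bmpr1a, Bmpr2 and Id2, as in the RNA-seq table, and the lowest for Id3. Bmpr2 was lowest in state 2 here, whereas in the RNA-seq table it was lowest in state 1. Column totals of the small RNA values ran from 2.61 M in state 3 to 5.13 M in state 1. The values were not divided by these totals, so the orders of the groups may depend on scaling.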

How the results depend on the processing

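No paired analysis was possible because the tables hold 1 value per group and no columns per replicate, and for the same reason no library could be left out. Pseudocounts and scalings do not enter the deposited probabilities and so could not change a call; they move log2 ratios only. Of 240 values of single genes under the 4 alternatives that can change a call, 227 kept their side of the threshold, 12 lost the call and 1 gained it. With a log2 ratio of at least 1 also required, 4 genes in place of 5 were called higher in state 3 against state 1, since Bmpr1a (0.61) lost its call; 0 genes were called higher in state 2 against state 1, 1 in state 3 against state 2 (Bmp2), 0 in state 2 against the total population and 2 in state 3 against the total population. With state 1 and the total population exchanged in the pattern order, 1 gene was called higher in state 2 against state 1 and 2 in state 2 against the total population, since Id2 lost the first call (probability 0.713) and gained the second (0.999). At a threshold of 0.99 Id4 lost its calls in state 3, and 0.90 changed none. Division by column totals turned 2 uncalled ratios, Bmp7 in state 2 against state 1 to 0.020 and Id1 in state 3 against state 2 to -0.0080. All 10 genes reach the minimum value of 10, so that filter could not remove one.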
